A study of Mus musculus with 9 samples.

Results

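The 10 genes described here encode 6 subunits of the AMP-activated protein kinase (AMPK), its upstream kinase Stk11, the coactivators Ppargc1a and Ppargc1b, and the orphan nuclear receptor Esrra. They were chosen by symbol, as members of one pathway, with earlier results of these data known. All 10 were found among the 35006 gene symbols of the tables. RNA came from stem cells of the hair follicle bulge, sorted as CD34+ and integrin alpha6+ from C57BL/6J mice and pooled from 3 animals. The DR group (dietary restriction, 4 libraries) came from mice given each day 70% of the food that matched AL animals ate. The AL group (ad libitum, 5 libraries) came from mice fed without limit. All mice lived singly. The labels give no age, sex, irradiation state, hair cycle stage or time of sampling, and they name several suppliers and animal facilities without assigning a library to either. They do not say that each library had its own pool, so p-values here cover the spread of these libraries alone, which may be partly technical.

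AMPK senses a low energy charge of the cell. It is a trimer of a catalytic alpha, a scaffold beta and an AMP-binding gamma subunit, each encoded by several genes, and it is switched on by Stk11 (LKB1), which phosphorylates the alpha subunit. PGC-1 coactivators, encoded by Ppargc1a and Ppargc1b, are known in muscle and brown fat for driving mitochondrial and oxidative genes, largely through Esrra (ERR alpha). AMPK activity is set mainly by phosphorylation, which transcript counts do not measure.

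Libraries held 26119459 to 33559312 gene counts. The lowest count of any of the 10 genes in a library was 108 and the highest 5274, so all 10 passed the filter on low counts. Bulge markers were high in every library, with a summed level of 24012 to 26449 CPM in DR and 33508 to 49582 CPM in AL. The keratin genes Krt5, Krt14 and Krt15 made up most of that sum. Of 12 such markers, 1 rose and 6 fell. Among the falls was Cd34, a sorting marker, at 414 to 630 CPM in DR and 531 to 2041 CPM in AL (log2 fold change -1.18, edgeR adjusted p = 0.0160). Itga6, the gene of the other sorting marker, did not pass (-0.12, edgeR adjusted p = 0.344). CPM are counts brought to a common library total with TMM scaling. The 16 cell division markers all fell, with a sum of 19.1 to 51.9 CPM in DR and 118 to 868 CPM in AL, where AL replicate 5 was lowest. The 6 suprabasal keratinocyte markers summed to 2227, 3300, 5540 and 3711 CPM in DR replicates 1 to 4. In AL their sum was 2004 to 4734 CPM, lowest in AL replicates 4 and 5. Of these 6 markers, 1 rose and 0 fell. DR replicates 1 and 2 stood apart from DR replicates 3 and 4 in endothelial, adipocyte and immune markers. The sum of 6 endothelial markers was 39.2 and 23.998 CPM in DR replicates 1 and 2 and 5.26 and 4.64 CPM in DR replicates 3 and 4, against 2.22 to 18.7 CPM in AL, where AL replicate 1 was highest. The 6 adipocyte markers, of which Fabp4 gave nearly all counts, summed to 47.5 and 22.2 CPM in DR replicates 1 and 2 and to 3.83 and 3.45 CPM in DR replicates 3 and 4, against 0.565 to 11.8 CPM in AL. Immune markers followed the same libraries, with sums of 48.2 and 38.5 CPM in DR replicates 1 and 2, 9.62 and 12.5 CPM in DR replicates 3 and 4, and 2.56 to 38.9 CPM in AL, and none of the 4 tested passed. Fibroblast markers summed to 23.0 to 62.6 CPM in DR and 80.9 to 142 CPM in AL; of 5 tested, Pdgfra rose and Col1a1 and Col1a2, which made up most of the sum in AL, fell. Among melanocyte markers 3 of 6 tested fell. None of the tested adipocyte and endothelial markers passed the test, and 1 of 6 adipocyte and 4 of 6 endothelial markers could be tested. Skeletal muscle markers, of interest because muscle is rich in alpha2 and PGC-1alpha, summed to at most 0.719 CPM in any library, with Myh4 and Pvalb at 0 throughout. The part of other cells in the results below was not tested, except where values without these libraries are given.

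In DR bulge cells paralogous AMPK subunit genes did not move together: within the alpha pair and within the gamma pair, 1 gene rose and the other fell. Prkaa1, Prkag1, Stk11 and Ppargc1a rose, Prkaa2, Prkag2, Ppargc1b and Esrra fell, and both beta subunit genes did not pass. By edgeR's quasi-likelihood test with Benjamini-Hochberg adjustment over 15447 genes, 8 of the 10 genes passed, beside 40.7% of all genes tested. The 4 that rose and 4 that fell compare with 19.0% and 21.7% of all genes. In 6 of the 10 the DR and AL libraries did not overlap, beside 32.9% of all genes. The median log2 fold change was -0.02, equal to that of all tested genes at 2 decimals, and the median size of a change over all genes was 0.34. Apart from Prkaa2 and Ppargc1a, the called genes changed by 0.33 to 0.50 in size. Without DR replicates 1 and 2, for which the share of all genes is not given here, 6 of the 10 passed, 2 higher and 4 lower. Prkaa1, Ppargc1a and Ppargc1b then no longer passed, and Prkab2 passed as lower (log2 fold change -0.55, edgeR adjusted p = 0.0141). Leaving out libraries changes the calls of other genes too, so the smaller count is not a result about these 10. Bulk RNA cannot tell fewer cells of a type from less RNA per cell.

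**Figure D1:**
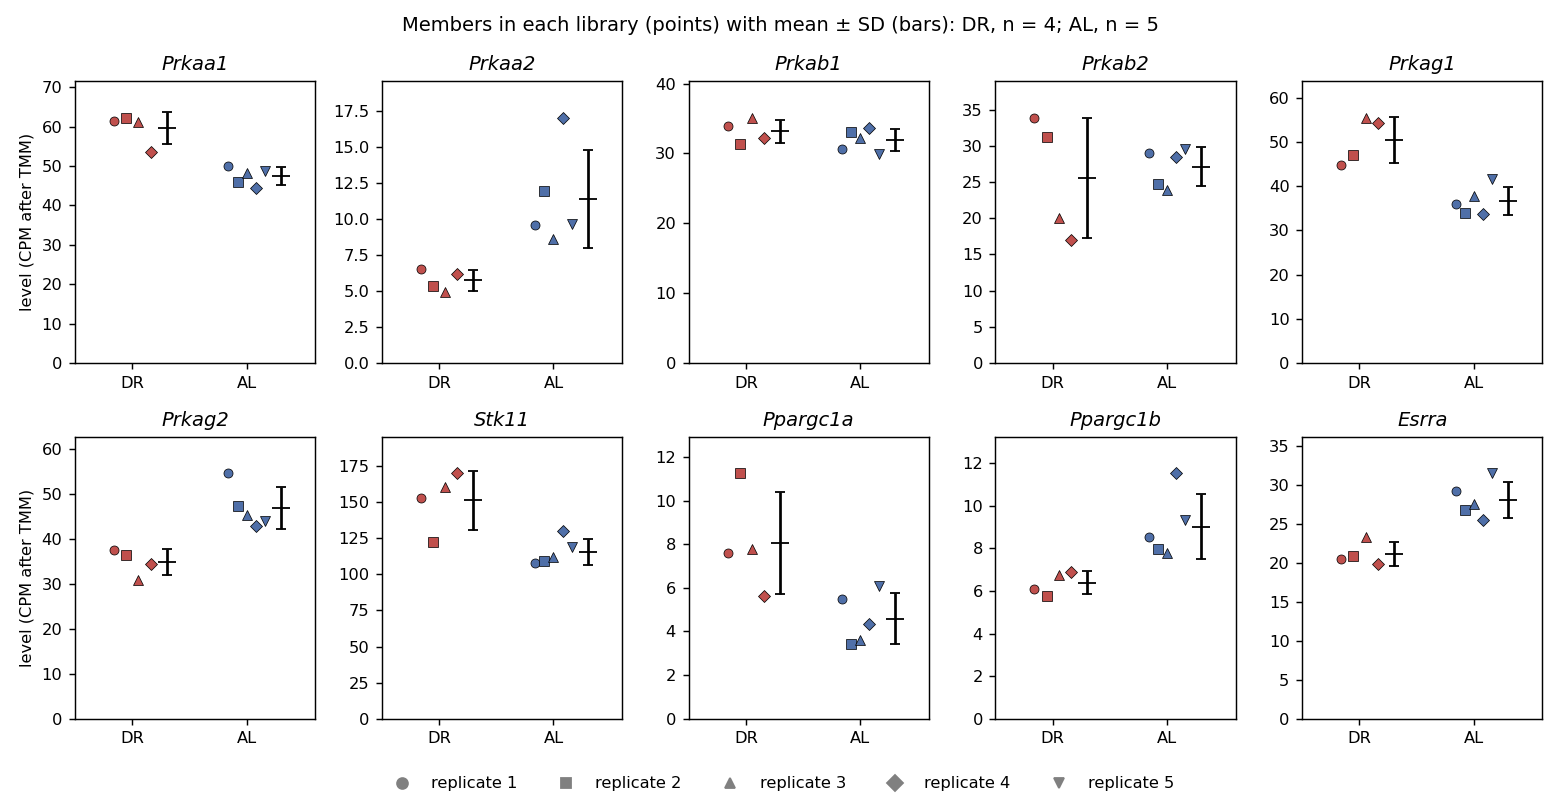
Levels of the 10 genes in each library, in CPM after TMM scaling (vertical axes, starting at 0), with DR left and AL right; points are libraries, with a symbol per replicate number, and bars are mean ± SD (n = 4 and 5). Prkaa1 and Prkag1 lie higher and Prkaa2, Prkag2, Ppargc1b and Esrra lower in every DR library than in any AL library, and Prkab2 splits within DR into 33.9 and 31.2 against 20.03 and 17.0 CPM.

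Promoters are shown for the 4 genes that rose and have an entry in the RefSeq table, and for Prkaa2, the alpha gene that fell. Each runs from 250 bases before to 50 bases after the start site in GRCm38.p6, 5′ to 3′ on the gene's strand, and the table held 9 of the 10 genes, some with several starts. Capitals mark matches to the motifs searched on both strands: the ERR half-site AAGGTCA, the CRE TGACGTCA, the E-box CACGTG, the ETS site CCGGAAG and the FoxO site TGTTTAC. The build of the sequences is not the one the reads were aligned to. The positions are chr4:105109849-105110148, minus strand for Prkaa2, chr15:5143611-5143910, plus strand for Prkaa1, chr15:98831459-98831758, minus strand for Prkag1, chr10:80115545-80115844, plus strand for Stk11 and chr5:51567676-51567975, minus strand for Ppargc1a.
Prkaa2: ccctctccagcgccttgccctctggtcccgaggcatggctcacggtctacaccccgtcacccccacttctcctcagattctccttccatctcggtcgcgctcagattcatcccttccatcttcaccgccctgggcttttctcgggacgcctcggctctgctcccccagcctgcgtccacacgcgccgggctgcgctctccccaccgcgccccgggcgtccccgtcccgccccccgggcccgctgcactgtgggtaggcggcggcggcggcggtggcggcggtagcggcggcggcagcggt
Prkaa1: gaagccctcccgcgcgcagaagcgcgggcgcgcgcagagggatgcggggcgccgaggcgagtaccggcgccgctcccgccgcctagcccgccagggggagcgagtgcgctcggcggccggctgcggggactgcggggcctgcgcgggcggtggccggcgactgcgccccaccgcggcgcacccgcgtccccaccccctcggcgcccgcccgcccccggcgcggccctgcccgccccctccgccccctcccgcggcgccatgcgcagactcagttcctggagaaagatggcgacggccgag
Prkag1: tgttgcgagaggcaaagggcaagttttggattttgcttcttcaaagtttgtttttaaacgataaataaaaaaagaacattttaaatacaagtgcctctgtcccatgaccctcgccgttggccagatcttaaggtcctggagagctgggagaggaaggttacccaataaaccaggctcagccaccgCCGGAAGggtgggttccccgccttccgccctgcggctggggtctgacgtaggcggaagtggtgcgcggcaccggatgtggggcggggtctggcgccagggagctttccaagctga
Stk11: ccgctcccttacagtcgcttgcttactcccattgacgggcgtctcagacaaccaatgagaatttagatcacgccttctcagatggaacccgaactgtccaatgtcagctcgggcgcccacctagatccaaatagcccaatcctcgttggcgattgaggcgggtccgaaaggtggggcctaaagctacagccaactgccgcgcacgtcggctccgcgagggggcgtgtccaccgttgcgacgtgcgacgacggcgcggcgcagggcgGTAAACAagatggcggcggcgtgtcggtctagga
Ppargc1a: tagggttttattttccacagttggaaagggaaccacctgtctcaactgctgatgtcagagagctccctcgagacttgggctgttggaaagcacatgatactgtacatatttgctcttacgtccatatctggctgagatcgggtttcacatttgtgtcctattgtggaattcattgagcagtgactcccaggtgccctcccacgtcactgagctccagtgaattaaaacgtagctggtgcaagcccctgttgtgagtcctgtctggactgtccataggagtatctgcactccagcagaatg

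The windows of Prkaa2 and Prkaa1 were rich in G and C (72.7% and 82.0%), while that of Ppargc1a was at 48.7%. The Prkag1 window held an ETS site at -65 from the start base, and the Stk11 window a FoxO site at 16 on the other strand. Over all 32851 windows of the table, 8.86% held the ETS site and 3.65% the FoxO site. Among the 11 windows of the members, 1 of the 3 of Prkag2 held the ERR half-site (4.72% of all windows) and that of Prkab1 the ETS site. None held the CRE (1.79%) or the E-box (7.15%), which says only that these letters are not in these windows.

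Prkaa1, which encodes the catalytic alpha1 subunit, was at 61.5, 62.2, 61.1 and 53.6 CPM in DR replicates 1 to 4, against 50.1, 45.9, 48.2, 44.3 and 48.7 CPM in AL replicates 1 to 5. Every DR library was above every AL library. It rose with a log2 fold change of 0.33 (SE 0.08, edgeR adjusted p = 0.00545), which is 1.26-fold (95% interval 1.12 to 1.41). Prkaa2, for the alpha2 subunit that predominates in muscle, was at 6.51, 5.36, 4.96 and 6.22 CPM in DR, against 9.61, 12.0, 8.65, 17.1 and 9.67 CPM in AL. Every DR library was below every AL library, and AL replicate 4 was the highest. Prkaa2 fell by a log2 fold change of -0.98 (SE 0.21, edgeR adjusted p = 0.00346), to 0.506 of the AL level (95% interval 0.369 to 0.694). Without DR replicates 1 and 2 the adjusted p of Prkaa1 was 0.0509 (log2 fold change 0.28), while Prkaa2 passed under every alternative tried.

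Within each library the reads of Prkaa2 per read of Prkaa1, which do not depend on scaling, were 0.106, 0.0863, 0.0814 and 0.116 in DR and 0.192, 0.261, 0.180, 0.385 and 0.199 in AL. The log2 ratio was -3.37 ± 0.244 in DR and -2.10 ± 0.453 in AL (SD, n = 4 and 5), a difference of -1.27. No split of the 9 libraries gave a larger difference (exact two-sided permutation p = 0.00794, the smallest possible for 4 against 5; adjusted over 4 ratios 0.0106). Alpha1 was the more abundant transcript in both groups. Per kilobase of exon, the sum of both alpha genes was 13.5 ± 0.835 CPM in DR and 11.6 ± 0.237 CPM in AL (SD), with libraries at 12.3 to 14.0 and at 11.4 to 12.0.

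Prkag1, for the widely expressed gamma1 subunit, was at 44.8, 47.0, 55.4 and 54.2 CPM in DR, against 36.0, 33.8, 37.7, 33.8 and 41.6 CPM in AL. The groups did not overlap. It rose with a log2 fold change of 0.46 (SE 0.10, edgeR adjusted p = 0.00304), or 1.38-fold (95% interval 1.19 to 1.59). An antisense gene, B130046B21Rik, shares 950 exonic bases with Prkag1 in the GENCODE annotation of GRCm38 and the kit does not mark strand. Its own level was 4.33 CPM in DR and 3.92 CPM in AL (log2 fold change 0.14, edgeR adjusted p = 0.691); its part in the Prkag1 counts was not tested. Antisense genes also share 142 and 795 exonic bases with Prkag2, 232 with Stk11 and 73 with Esrra. Prkag2, for the gamma2 subunit, mutated in a human cardiomyopathy with glycogen storage, was at 37.5, 36.3, 30.8 and 34.5 CPM in DR, against 54.5, 47.2, 45.4, 42.9 and 44.0 CPM in AL. All DR libraries were below all AL libraries. It fell by a log2 fold change of -0.43 (SE 0.09, edgeR adjusted p = 0.00437), to 0.743 of the AL level (95% interval 0.643 to 0.858).

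Reads of Prkag2 per read of Prkag1 were 0.836, 0.773, 0.556 and 0.636 in DR and 1.51, 1.40, 1.20, 1.27 and 1.06 in AL. So Prkag1 gave more reads than Prkag2 in all 4 DR libraries and fewer in all 5 AL libraries. The log2 ratio was -0.53 ± 0.267 in DR and 0.35 ± 0.198 in AL (SD, n = 4 and 5; difference -0.89, exact two-sided permutation p = 0.00794, adjusted over 4 ratios 0.0106). Both gamma genes together stood at 39.4 ± 2.51 CPM per kilobase in DR and 34.1 ± 2.11 CPM per kilobase in AL. The third gamma gene, Prkag3, known from glycolytic muscle, had only 20 to 46 counts in DR libraries and 1 to 17 in AL libraries. It rose with a log2 fold change of 2.47 (SE 0.51, edgeR adjusted p = 0.00318), at 1.30 ± 0.423 CPM in DR and 0.223 ± 0.195 CPM in AL.

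Neither beta gene passed. Prkab1, for the beta1 scaffold, was at 31.3 to 35.1 CPM in DR and 29.9 to 33.7 CPM in AL, and the 95% interval of its log2 fold change was -0.11 to 0.22 (edgeR adjusted p = 0.593). Prkab2, for beta2, was at 33.9, 31.2, 20.03 and 17.0 CPM in DR, against 29.0, 24.7, 23.9, 28.5 and 29.6 CPM in AL. DR replicates 1 and 2 were above all AL libraries and DR replicates 3 and 4 below all of them. The log2 fold change was -0.09 (95% interval -0.50 to 0.33, edgeR adjusted p = 0.744). DR replicates 1 and 2 are the libraries with the higher adipocyte and endothelial marker sums given above, and whether those cells bear on Prkab2 was not tested. Without them, which leaves only the DR libraries below all AL libraries, the log2 fold change was -0.55 (edgeR adjusted p = 0.0141). The log2 ratio of Prkab2 to Prkab1 was -0.43 ± 0.499 in DR and -0.24 ± 0.191 in AL (SD; exact two-sided permutation p = 0.437, also when adjusted over 4 ratios).

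**Figure D2:**
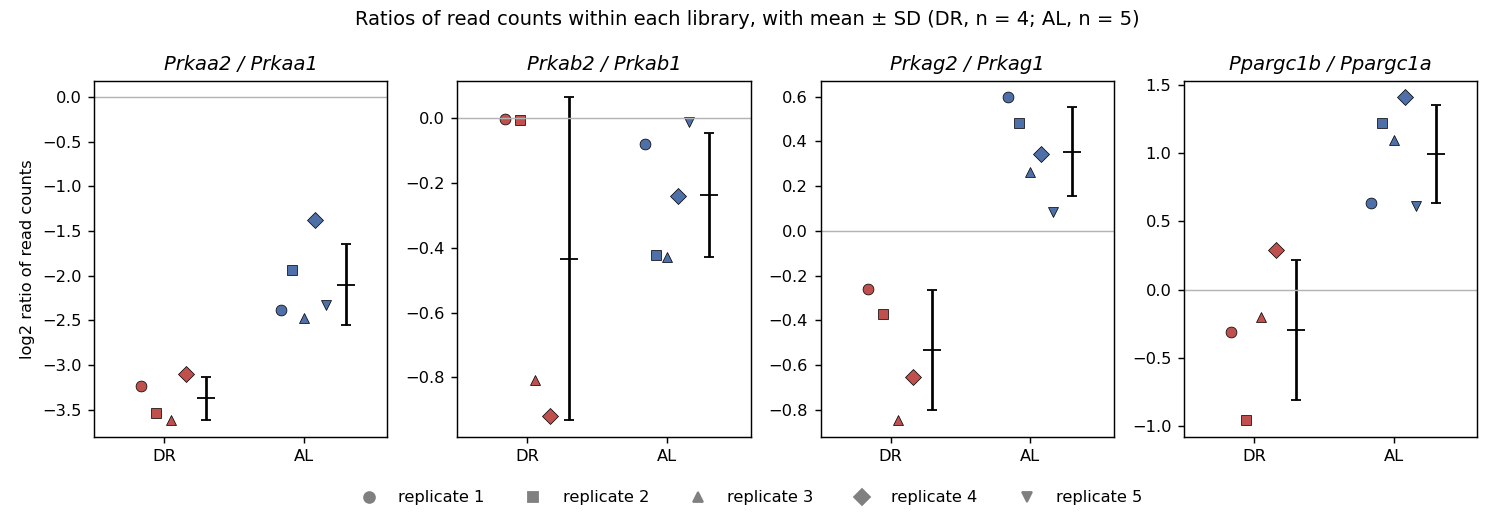
Log2 ratio of read counts of 2 related genes within each library (vertical axes), DR left and AL right; points are libraries, with a symbol per replicate number, and bars are mean ± SD (n = 4 and 5). The ratios of Prkaa2 to Prkaa1, Prkag2 to Prkag1 and Ppargc1b to Ppargc1a do not overlap between groups, and that of Prkab2 to Prkab1 does (0.529 to 0.998 reads per read in DR and 0.743 to 0.991 in AL).

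Stk11, the tumour suppressor kinase LKB1 that activates AMPK and its relatives, was the most abundant of the 10 transcripts. It was at 153, 123, 161 and 170.1 CPM in DR, against 108, 109, 112, 129.8 and 119 CPM in AL. DR replicate 2 lay within the AL range and the other 3 DR libraries above it. Stk11 rose with a log2 fold change of 0.39 (SE 0.11, edgeR adjusted p = 0.0122), or 1.31-fold (95% interval 1.12 to 1.54). Of its partners in the active complex, the pseudokinase gene Strada fell (edgeR adjusted p = 0.0455, log2 fold change -0.28) and the scaffold gene Cab39 did not pass (0.22, adjusted p = 0.196). The other pseudokinase gene, Stradb, picked after its value was seen, rose (0.50, edgeR adjusted p = 0.00390). Its counterpart among the scaffold genes, Cab39l, did not pass (0.11, edgeR adjusted p = 0.414). The call of Strada was lost under 10 of 20 alternatives, among them without DR replicate 2, 3 or 4 or AL replicate 1, 2 or 3 (edgeR adjusted p 0.0557 to 0.138). That of Cab39 was gained without DR replicate 1 (0.32, adjusted p = 0.0398).

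Ppargc1a, which encodes PGC-1alpha, was at 7.59, 11.3, 7.78 and 5.64 CPM in DR, against 5.49, 3.40, 3.62, 4.32 and 6.10 CPM in AL. DR replicate 4 lay within the AL range and the other DR libraries above it, with DR replicate 2 the highest. It rose with a log2 fold change of 0.82 (SE 0.23, edgeR adjusted p = 0.0170), or 1.76-fold (95% interval 1.23 to 2.52). Ppargc1b, for PGC-1beta, moved the other way. It was at 6.11, 5.78, 6.76 and 6.90 CPM in DR, against 8.52, 7.97, 7.78, 11.53 and 9.33 CPM in AL, with no overlap, and fell by a log2 fold change of -0.50 (SE 0.15, edgeR adjusted p = 0.0210). Neither gene passed without DR replicate 2, with log2 fold changes of 0.61 for Ppargc1a (edgeR adjusted p = 0.0585) and -0.45 for Ppargc1b (0.0591). For Ppargc1b the DR libraries left were still all below the AL libraries. Without DR replicates 1 and 2 the log2 fold changes were 0.55 (edgeR adjusted p = 0.138) and -0.40 (0.143).

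The ratio of the 2 coactivators also did not overlap between groups. Reads of Ppargc1b per read of Ppargc1a were 0.806, 0.514, 0.870 and 1.22 in DR and 1.55, 2.34, 2.14, 2.66 and 1.53 in AL. The log2 ratio was -0.30 ± 0.514 in DR and 0.997 ± 0.359 in AL (SD, n = 4 and 5; difference -1.29, exact two-sided permutation p = 0.00794, adjusted over 4 ratios 0.0106). Leaving out any 1 library gave differences of -1.49 to -1.07 (adjusted p 0.0238 to 0.0381). The third family member, Pprc1, stood at a log2 fold change of -0.08 (edgeR adjusted p = 0.855), whose sign changed without DR replicate 2, 3 or 4 or AL replicate 4.

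Esrra, the nuclear receptor through which PGC-1 coactivators reach many mitochondrial genes, was at 20.5, 20.9, 23.3 and 19.9 CPM in DR, against 29.2, 26.8, 27.6, 25.5 and 31.5 CPM in AL. The groups did not overlap, and Esrra and Ppargc1a went in opposite directions. Esrra fell by a log2 fold change of -0.41 (SE 0.09, edgeR adjusted p = 0.00483), to 0.753 of the AL level (95% interval 0.655 to 0.866). Without AL replicate 1 and DR replicates 1 and 2 the adjusted p was 0.0807 (log2 fold change -0.36). Its relatives Esrrb and Esrrg had at most 3 counts and 1 count in any library and were not tested.

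**Figure D3:**
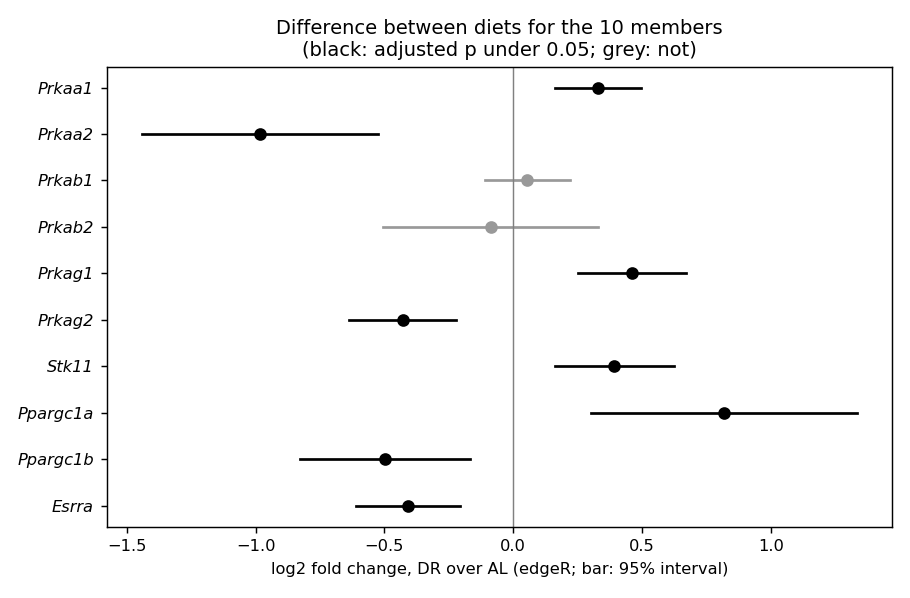
Log2 fold change of DR over AL (horizontal axis) for the 10 genes, from edgeR's fit across all genes; points are estimates, bars 95% intervals, black where the adjusted p passed 0.05 and grey where not. The 4 rises lie between 0.33 and 0.82 and the 4 falls between -0.98 and -0.41, and the intervals of Prkab1 and Prkab2 cover 0.

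Levels of different genes were compared per kilobase of annotated exon. In DR the order was Stk11 (54.3 CPM per kilobase), Prkag1 (30.5), Prkab1 (15.5), Prkaa1 (12.8), Esrra (9.44), Prkag2 (8.91), Prkab2 (5.10), Ppargc1b (1.71), Ppargc1a (1.25) and Prkaa2 (0.723). In AL it was Stk11 (41.4), Prkag1 (22.1), Prkab1 (14.9), Esrra (12.5), Prkag2 (12.0), Prkaa1 (10.2), Prkab2 (5.42), Ppargc1b (2.42), Prkaa2 (1.43) and Ppargc1a (0.710). Ranges of neighbours overlapped in DR for Esrra with Prkag2 and for Ppargc1b with Ppargc1a. In AL they overlapped for Prkab1 with Esrra, Esrra with Prkag2 and Ppargc1b with Prkaa2. Prkaa1 thus ranked above Esrra and Prkag2 in DR libraries and below both in AL libraries, and Ppargc1a above Prkaa2 in DR and below it in AL. With the longest coding transcript as length, Prkag2 stood above Esrra in both groups (10.4 against 9.44 CPM per kilobase in DR and 14.1 against 12.5 in AL).

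**Figure D4:**
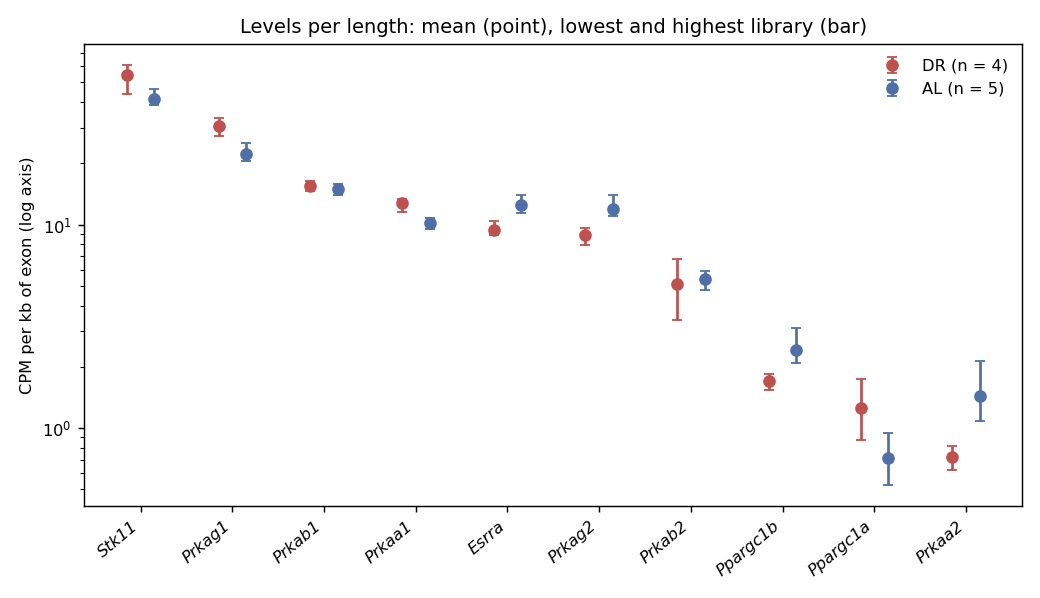
Level of each gene in CPM per kilobase of annotated exon (vertical log axis), DR left of AL for each gene; points are means and bars run from the lowest to the highest library (n = 4 and 5). Genes are in the DR order, from Stk11 at 54.3 to Prkaa2 at 0.723 CPM per kilobase.

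Other genes of the pathway were taken from lists and read against the 40.7% of all genes that passed. The lists were chosen with earlier results of these data known, so this comparison is not an independent one. The list of AMPK regulators also held the gamma gene Prkag3, which is among its rises. It did not separate genes that raise AMPK activity from those that lower it. Among its 18 genes, 7 rose and 4 fell, with a median log2 fold change of 0.18. Those with the smallest p were the sestrin gene Sesn1 (log2 fold change 1.499, SE 0.119), Flcn (0.97, SE 0.09), the folliculin partner gene Fnip1 (0.89, SE 0.14), the Stk11-binding protein gene Stk11ip (0.58, SE 0.11) and Sesn3 (-0.89, SE 0.17). Fnip1 was at 102 to 147 CPM in DR and 52.5 to 76.3 CPM in AL. Camkk2, an upstream kinase that responds to calcium, was at 8.36 ± 1.26 CPM in DR and 11.9 ± 2.32 CPM in AL and fell by 0.51 on the log2 scale (edgeR adjusted p = 0.0345). Its call was lost without DR replicate 2, 3 or 4 or AL replicate 1, 2 or 3 (adjusted p 0.0538 to 0.0962), and with Strada the number of falls in this list then went to 2.

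Of the 11 tested kinases related to AMPK that Stk11 activates, 3 rose by edgeR, 4 by DESeq2 and 3 by limma-voom, and none fell by any of these tools. By edgeR that is 27.3% of the list, below the 40.7% of all genes. DESeq2 called 43.3% of all genes. The median log2 fold change of the 11 kinases was 0.04. Nuak1, a kinase of cell adhesion, was at 356 to 561 CPM in DR and 99.3 to 188 CPM in AL and rose with a log2 fold change of 1.62 (SE 0.19, edgeR adjusted p = 1.2e-04). Snrk (0.92, SE 0.15) and Mark3 (0.29, SE 0.08) also rose, Mark3 not passing with library size only (adjusted p = 0.0584). With limma-voom quality weights, for which the share of all genes is not given here, 5 rose in place of 3. Sik1, which restrains CREB coactivators, was at 666 ± 119 CPM in DR and 650.2 ± 192 CPM in AL (log2 fold change 0.03, SE 0.21, adjusted p = 0.914), with a sign that turned under 7 of 20 alternatives.

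Transcripts for known AMPK substrates passed in 18 of 26 cases, 12 higher and 6 lower, with a median of 0.21. The smallest p belonged to Eef2k, the kinase that slows translation elongation (log2 fold change 0.89, SE 0.09), the lipase genes Pnpla2 (1.42, SE 0.16) and Lipe (0.97, SE 0.12), the histone deacetylase gene Hdac4 (0.99, SE 0.13) and Pfkfb3, a stimulator of glycolysis (1.92, SE 0.26). Pnpla2 was at 88.7 ± 7.18 CPM in DR and 33.1 ± 8.41 CPM in AL (SD, n = 4 and 5). Acaca, the classical substrate in fat synthesis, did not pass (26.7 ± 4.12 CPM in DR and 23.7 ± 2.63 CPM in AL, log2 fold change 0.18, edgeR adjusted p = 0.269). The 6 falls became 3 without DR replicate 3, AL replicate 2 or AL replicate 4, and without DR replicates 1 and 2.

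Of 25 tested partners and relatives of PGC-1, 10 rose and 2 fell, with a median of 0.26; with library size only, 6 rose. The falls of Kat2a and Tfb1m became 1 without DR replicate 3 or 4 or any 1 AL library. Ppara, the fatty acid receptor that PGC-1alpha coactivates, was at 7.01, 6.76, 8.79 and 9.13 CPM in DR and 3.65, 3.51, 3.25, 2.99 and 4.06 CPM in AL. All DR libraries were higher, and the log2 fold change was 1.18 (SE 0.16, edgeR adjusted p = 2.5e-04). The acetyltransferase gene Kat2a (GCN5), whose product represses PGC-1alpha, fell by 0.73 on the log2 scale (adjusted p = 3.7e-04). Ncoa1 (0.51, SE 0.08), the mitochondrial transcription factor gene Tfb2m (0.71, SE 0.12) and the nuclear respiratory factor genes Nrf1 (0.40, SE 0.07) and Gabpa (0.28, SE 0.08) rose. Gabpa did not pass with library size only (adjusted p = 0.0607). Tfam, which packages and transcribes mitochondrial DNA, stood at a log2 fold change of 0.26 (edgeR adjusted p = 0.0678) and passed without DR replicate 1 (0.33, adjusted p = 0.0231) and by DESeq2 (0.27, adjusted p = 0.0483).

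Genes known as targets of PGC-1 with Esrra passed in 13 of 34 cases, 4 higher and 9 lower, with a median of -0.13. That share, 38.2%, is near the background. The kinase gene Pdk4 had the largest rise (26.9 to 36.4 CPM in DR and 1.09 to 1.58 CPM in AL) and the mitofusin gene Mfn1 rose by 0.57 (SE 0.09). The adenine nucleotide carrier gene Slc25a4 (log2 fold change -0.66), the uncoupling protein gene Ucp2 (-1.82) and the ATP synthase gene Atp5o (-0.46) fell. Cycs, for cytochrome c, was at 3.12 ± 0.501 CPM in DR and 3.42 ± 0.651 CPM in AL and did not pass (edgeR adjusted p = 0.615). Without DR replicates 1 and 2, 5 of these genes were lower in place of 9, with no share of all genes given for that setting.

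**Figure D5:**
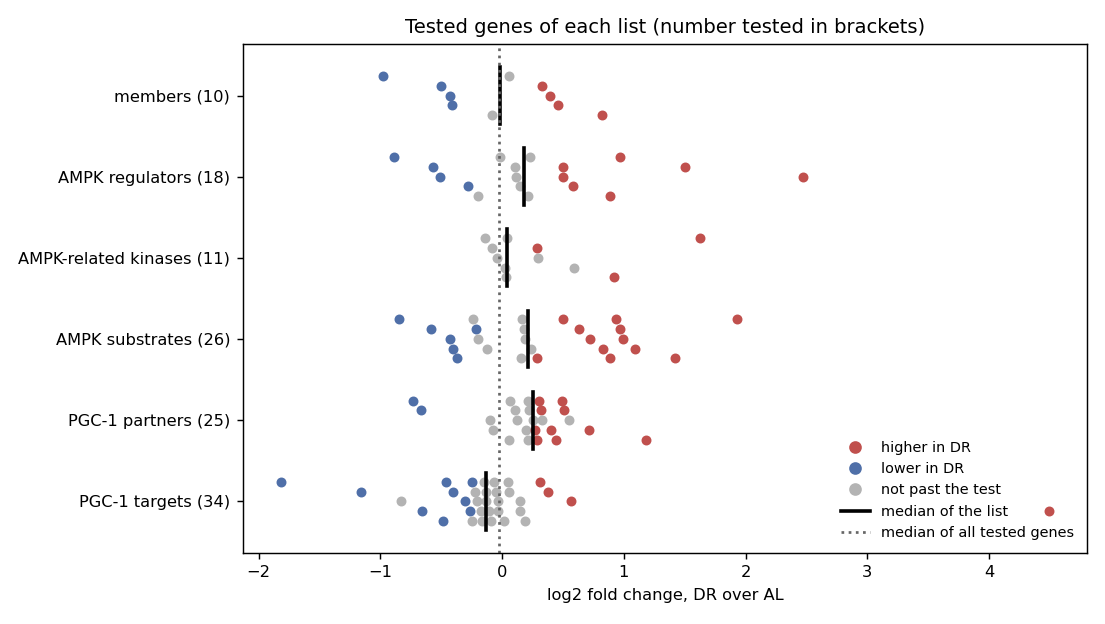
Log2 fold change of DR over AL (horizontal axis) of each tested gene of the 10 genes and of 5 lists (rows, number tested in brackets); red points were higher and blue points lower by edgeR's test, grey points did not pass, black bars are list medians and the dotted line the median of all genes. AMPK substrates and PGC-1 partners lean to the right of the line (medians 0.21 and 0.26), and PGC-1 targets to the left (-0.13).

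The genes most like Prkag1, the AMPK member with the smallest p, were Rnf145, Rp9 and Dcaf11, with Pearson r of 0.998, 0.994 and 0.992 over the 9 libraries among 10093 genes, and 0.990, 0.973 and 0.965 after group means were taken off. Those most like Esrra were Vwa1, Wwp2 and Capn5 (0.983, 0.981 and 0.980, and 0.904, 0.917 and 0.890 after group means). The libraries share the diet difference and the scaling. Rnf145 was at 168 CPM in DR and 109.7 CPM in AL, and Vwa1 at 34.4 CPM in DR and 83.0 CPM in AL (means).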

How the data were processed

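RNA-seq libraries of sorted bulge cells were single reads of 51 cycles from a TruSeq RNA v2 kit, per the labels' protocols. The authors deposited raw read counts per gene symbol. HTSeq 0.11.2, Bowtie, TopHat2 2.1.0, FastQC 0.11.5 and the build mm9 are listed in the submitters' processing notes; the sources used here give neither the annotation nor the strand setting. The 6 of 35012 lines that name no gene held 25.9% to 30.7% of counts and were left out.

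Counts were tested with edgeR 4.0.16 in R 4.3.3: filterByExpr, TMM, a quasi-likelihood fit on diet over all 15447 genes kept, and a threshold of 0.05 on adjusted p. SEs follow from the F statistic. Ratios used counts plus 0.5 and exact permutation of libraries. Lengths came from the GENCODE basic annotation of GRCm38. Replicates differed beyond sampling noise in all 16 pairs (chi-square over its degrees of freedom 26.4 to 118), and each library counted once. Such differences cannot show that the libraries came from separate pools. Named genes are the 10 members, 11 fixed genes, up to 5 called genes with the smallest p per list, and the 3 genes most like Prkag1 and Esrra. The members and lists were chosen with earlier results of these data known. Tested on simulated data for this comparison (15447 genes, 200 of them changed), the fit found 21.6% of 1.5-fold and 61% of 2-fold changes. In the data 40.7% of genes passed, which makes the adjustment less strict, so these shares are not the power of this comparison. Alternatives included DESeq2 1.42.0 and limma 3.58.1.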

Additional observations from a re-analysis of the deposited data

Results flagged for a closer look

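Prkaa1 in DR replicate 4 stood apart from the other DR libraries, at 53.6 CPM against 61.1 to 62.2 CPM. Its gap to the nearest library was 0.874 of the DR range. It was still above every AL library. Of 28 groups looked at, chance would flag about 1 in 20.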

How the results depend on the processing

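The 8 calls among the 10 genes stood under other scalings and filters, DESeq2, limma-voom and the replicate block; 6 to 8 remained without any 1 library. The counts of rises and falls were each 3 to 4 then, and all genes called were 5176 to 6402 (2470 to 3044 higher and 2674 to 3358 lower). The last alternatives were chosen after seeing the data. Their counts have no share of all genes beside them, and leaving out libraries also changes how many genes pass. Without DR replicates 1 and 2, members higher were 2, regulators lower 2, substrates lower 3 and PGC-1 targets lower 5. With AL replicate 1 also left out, 5 members passed, 2 of them higher. Prkab2 was among the 5, and Prkaa1, Ppargc1a, Ppargc1b and Esrra did not pass. Regulators lower were then 1, substrates lower 3, and PGC-1 targets 2 higher and 5 lower. PGC-1 partners higher were 6 with library size only. Related kinases higher were 5 with voom quality weights and 5 with the replicate block. Without any 1 library, falls numbered 2 to 4 for regulators, 3 to 5 for substrates and 1 to 2 for partners.

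With the replicate block (4 pairs of same-numbered libraries, where the adjusted p cannot go below 0.05) the ratio differences were -1.33 for alpha, -0.95 for gamma and -1.39 for the coactivators. Same-numbered libraries had deviation correlations of 0.0386, 0.132, 0.228 and 0.0289 for replicates 1 to 4. Only 1 of 4 DR libraries correlated best with its own number. These 4 values cannot decide whether the numbers pair the libraries, and the main tests used no pairing. Without AL replicate 1 and DR replicates 1 and 2 the ratio differences were -1.33, -1.04 and -1.04, again too few libraries to pass. Without DR replicates 1 and 2 the beta ratio was -0.63; its adjusted p of 0.0476 is the smallest that 2 against 5 libraries can give, all 4 ratios had it, and the libraries left out were those with Prkab2 above all AL libraries. Leaving out any 1 library, the differences were -1.37 to -1.09 for alpha, -0.98 to -0.78 for gamma and -0.34 to -0.04 for beta.

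Signs turned only for genes near 0. With upper-quartile scaling Prkab1 was -0.0059 and Sik1 -0.022, and with library size only -0.012 and -0.015. Without any 1 library, Prkab2 lay at -0.25 to 0.067, Pprc1 at -0.47 to 0.14 and Sik1 at -0.057 to 0.17. The causes were not tested. Depth limits the precision of Prkag3, with 1 to 17 counts in AL.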

Other observations

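Several other small gene families of these pathways split between the diets like the alpha and gamma pairs; they were picked after their values were seen, and no test of the pattern was made. Of the sestrins, stress proteins that act on AMPK and mTORC1, Sesn1 was at 321 ± 43.3 CPM in DR and 114 ± 13.6 CPM in AL, while Sesn3 was at 19.0 ± 4.93 CPM in DR and 35.1 ± 5.62 CPM in AL (SD, n = 4 and 5; edgeR adjusted p 1.4e-05 and 0.00235). Of the CREB coactivators that AMPK relatives restrain, Crtc2 and Crtc3 rose by log2 fold changes of 0.63 and 0.50, and Crtc1 fell by 0.85 on the log2 scale. Stradb, a pseudokinase partner of Stk11, rose by 0.50 (SE 0.11; without AL replicate 1 and DR replicates 1 and 2, adjusted p = 0.0734), and Strada fell by 0.28 with a call lost without any 1 of 6 libraries. Of the 2 mitochondrial relatives of rRNA methyltransferases, Tfb2m was at 8.62 ± 0.764 CPM in DR and 5.26 ± 0.287 CPM in AL. Tfb1m was at 4.38 ± 1.67 CPM in DR and 6.96 ± 0.544 CPM in AL (adjusted p = 0.0412), a call lost without DR replicate 3 or 4 or without any 1 AL library (0.0554 to 0.119).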
